A study of Homo sapiens with 4 samples.

Results

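The core histone genes of the HIST clusters were defined as the rows of the deposited gene table whose symbol starts with HIST1H2, HIST1H3, HIST1H4, HIST2H, HIST3H or HIST4H and whose value was above 0 in any library. The members were thus selected on measured values as well as on their symbols. The rule found 58 genes among the 41507 genes of the table, namely 16 H2A, 16 H2B, 12 H3 and 14 H4 genes. By cluster, 44 belonged to HIST1 on chromosome 6, 11 to HIST2 and 2 to HIST3 on chromosome 1, and 1 to HIST4 on chromosome 12. SU-DHL-5 and Toledo, established cell lines of diffuse large B-cell lymphoma, were each cultured with JQ1 at 1 µM or with DMSO, the solvent, as the control. JQ1 is a small molecule that occupies the bromodomains of BET proteins and displaces them from acetylated histone tails. The labels of the samples give 6 h of treatment, while the study itself gives a longer time. Neither line carries an introduced allele or transgene per the labels, and each condition was 1 sample (n = 1) with 2 libraries in the tables, of which nothing states that they came from separate cultures. For this reason no difference within a line was tested, and each is set beside the values of both libraries. The only test is one of JQ1 over both lines together.

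Core histones form the octamer around which DNA is wrapped, and most of their genes are replication-dependent: they are small, lack introns, lie in clusters and are expressed in S phase, when new chromatin is assembled. Their mRNAs usually end just after a conserved stem-loop rather than in a poly(A) tail, and the stem-loop is bound by the protein SLBP, which governs their processing, translation and decay. Some of the genes also give longer mRNAs that run past the stem-loop to a poly(A) signal and are polyadenylated. The libraries were made with a kit that captures polyadenylated mRNA, so the values below are those of histone RNA that this capture retained, and the amounts of tailless histone mRNA were not measured by it.

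The stem-loop is shown because an mRNA that ends at it carries no poly(A) tail. It was searched for in the GENCODE v29 transcripts of the members, all 58 of which are annotated there, and was found in 31. In 23 of these, at least 100 bases of annotated transcript followed it. The search used a fixed pattern and annotated transcripts only, some of them short, such as HIST1H2BK-201 with 381 bases. A member without a match may therefore still carry a stem-loop. The 6 forms found are printed 5′ to 3′ as DNA, with the 6 bases of each stem arm in capitals and the 4 bases of the loop in lower case, and named by the genes that carry them.

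17 members, among them HIST1H2AC, HIST1H2BG, HIST1H3H, HIST2H2AA3, HIST2H2BE and HIST3H2A: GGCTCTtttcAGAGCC
5 H4 members, among them HIST1H4H, HIST1H4J and HIST4H4: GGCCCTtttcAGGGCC
HIST1H2BC, HIST1H2BD, HIST1H2BF and HIST1H3G: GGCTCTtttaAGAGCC
HIST1H4I, HIST2H4A and HIST2H4B: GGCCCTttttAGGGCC
HIST1H3E: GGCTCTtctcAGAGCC
HIST1H2AG: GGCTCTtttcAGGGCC

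All 8 H4 members with a match carried the second or the fourth of these forms, which were found in no H2A, H2B or H3 member. Upstream regions were matched in RefSeq (GRCh38.p14) for 53 of the 58 members, as 250 bases before to 50 bases after each start. An octamer element (ATTTGCAT or its reverse complement), the site known to bind POU2F1, was present in 43.4% of them against 1.77% of all 35116 promoters in the same table. It was found in 10 of 15 H2A, 12 of 16 H2B, 1 of 10 H3 and 0 of 12 H4 promoters. The H3 promoter with an octamer, that of HIST1H3D, is the same stretch as that of HIST1H2AD. H2A and H2B genes that face away from each other share upstream bases, so 1 octamer can count for both, as for HIST1H2AC and HIST1H2BC. The counts and percentages are therefore of genes and not of separate sites. A CCAAT box on either strand was present in 83.0% of the members against 34.6% of all promoters, including every H2A, H2B and H3 promoter matched and 3 of the 12 H4 promoters. A TATAAA box on either strand was found in 66.0% against 11.5%. A match is a description of the letters and not a measured site. The 250 bases before the start of 6 members are printed 5′ to 3′ on the gene's strand, with octamer elements and CCAAT boxes in capitals, because these genes carry the differences described below or, as for HIST1H2AI, differ from the gene they face.

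HIST1H2AC, chr6:26123922-26124171, plus strand: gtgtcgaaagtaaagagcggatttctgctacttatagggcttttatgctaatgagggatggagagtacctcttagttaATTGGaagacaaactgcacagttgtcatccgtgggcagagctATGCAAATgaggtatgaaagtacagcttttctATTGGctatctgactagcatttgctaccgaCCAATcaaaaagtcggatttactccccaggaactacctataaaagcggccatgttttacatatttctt
HIST1H2AI, chr6:27807923-27808172, plus strand: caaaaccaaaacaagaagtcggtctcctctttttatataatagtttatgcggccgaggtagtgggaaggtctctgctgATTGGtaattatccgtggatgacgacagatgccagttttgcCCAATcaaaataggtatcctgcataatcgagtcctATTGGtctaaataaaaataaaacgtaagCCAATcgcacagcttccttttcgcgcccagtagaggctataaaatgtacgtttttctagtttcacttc
HIST1H2BK, chr6:27146859-27147108, minus strand: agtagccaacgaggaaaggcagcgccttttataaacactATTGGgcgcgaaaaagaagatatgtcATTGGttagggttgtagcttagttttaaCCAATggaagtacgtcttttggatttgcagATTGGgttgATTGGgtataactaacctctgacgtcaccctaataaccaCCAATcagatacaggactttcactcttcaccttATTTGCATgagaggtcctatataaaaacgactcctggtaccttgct
HIST1H3H, chr6:27809801-27810050, plus strand: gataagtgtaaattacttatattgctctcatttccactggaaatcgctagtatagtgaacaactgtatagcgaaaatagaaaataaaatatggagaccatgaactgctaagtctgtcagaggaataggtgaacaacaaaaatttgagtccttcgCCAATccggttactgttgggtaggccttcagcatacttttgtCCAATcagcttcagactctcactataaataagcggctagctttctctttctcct
HIST2H2BE, chr1:149886683-149886932, minus strand: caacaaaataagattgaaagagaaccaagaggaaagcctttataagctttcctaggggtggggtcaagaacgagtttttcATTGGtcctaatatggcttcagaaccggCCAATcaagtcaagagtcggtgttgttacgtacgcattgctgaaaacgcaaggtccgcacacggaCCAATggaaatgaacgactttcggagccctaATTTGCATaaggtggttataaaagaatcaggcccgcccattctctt
HIST2H4A, chr1:149832407-149832656, plus strand: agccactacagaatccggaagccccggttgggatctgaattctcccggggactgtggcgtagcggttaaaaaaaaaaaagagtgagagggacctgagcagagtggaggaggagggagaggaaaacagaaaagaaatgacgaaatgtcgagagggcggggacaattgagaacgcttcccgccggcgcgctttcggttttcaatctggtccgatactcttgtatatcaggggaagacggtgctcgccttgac

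HIST1H2BK and HIST2H2BE each held 1 octamer at 46 bases before the start, HIST1H2AC held 1 at 130 bases, and HIST2H4A held neither element in these 250 bases.

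The RPKM, the number of reads scaled to gene model length and sequencing depth, was converted back to whole reads. The 8 libraries held between 14617583 and 17679831 mapped reads, of which 95.0% to 95.8% lay on genes. B-cell markers were expressed in both lines. CD79A, a subunit of the B-cell receptor, ranged from 367 to 643 RPKM in SU-DHL-5 cells and from 173 to 313 in Toledo, and the 6 B-cell markers summed to 884 to 999 RPKM in SU-DHL-5 DMSO and 886 to 947 in Toledo DMSO. Of the 4 T-cell markers, 3 were above 0 in some library, with a sum of 1.00 to 1.24 in SU-DHL-5 DMSO and at most 0.154 in any other sample, and CD2 was at 0. Of the 4 myeloid markers, 3 were above 0, with a sum of 1.25 to 1.29 in SU-DHL-5 DMSO and at most 0.339 elsewhere, and MPO was at 0. CD3E, a T-cell receptor subunit, was at 1.09 and 0.934 RPKM and LYZ, the gene of lysozyme, at 1.09 and 1.20 in SU-DHL-5 DMSO, and both were called lower with JQ1 by the rule given below. The part of these markers in the histone values was not tested. The libraries of the Toledo DMSO sample differed with gene length. Among the 11 members with at least 50 reads in that sample, the median log2 ratio of library 2 over library 1 was -0.19, against 0.097 over all genes and -0.20 over other genes of 300 to 1000 bases. The gene models of 53 members are shorter than 600 bases, so Toledo values are given with both libraries throughout.

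Core histone RPKM was higher with JQ1 in both lines. In SU-DHL-5, the summed RPKM of the 58 members was 62.4 and 64.7 in the DMSO libraries and 317 and 325 in the JQ1 libraries, a 5.05-fold difference of the means (4.91 to 5.21 over the 4 pairings of a JQ1 with a DMSO library). In Toledo the sum was 191 and 168 with DMSO and 1107 and 1079 with JQ1, which is 6.08-fold higher (5.65 to 6.57 over the pairings). The JQ1 libraries lay far above the DMSO libraries of the same line, and the libraries of a sample were close to each other. Counted in reads, the members took 1409 reads with DMSO and 6944 with JQ1 in SU-DHL-5, a ratio per mapped read of 5.18 with a 95% exact binomial interval of 4.89 to 5.49. In Toledo they took 4203 and 24101 reads, a ratio of 6.00 with an interval of 5.81 to 6.20. Such intervals cover counting error only, and not the variation between cultures. RPKM is scaled to mapped reads, so more histone RNA per cell and less of other RNA cannot be told apart here. Neither can a change in transcript number and a change in the share of transcripts that are polyadenylated.

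**Figure D1:**
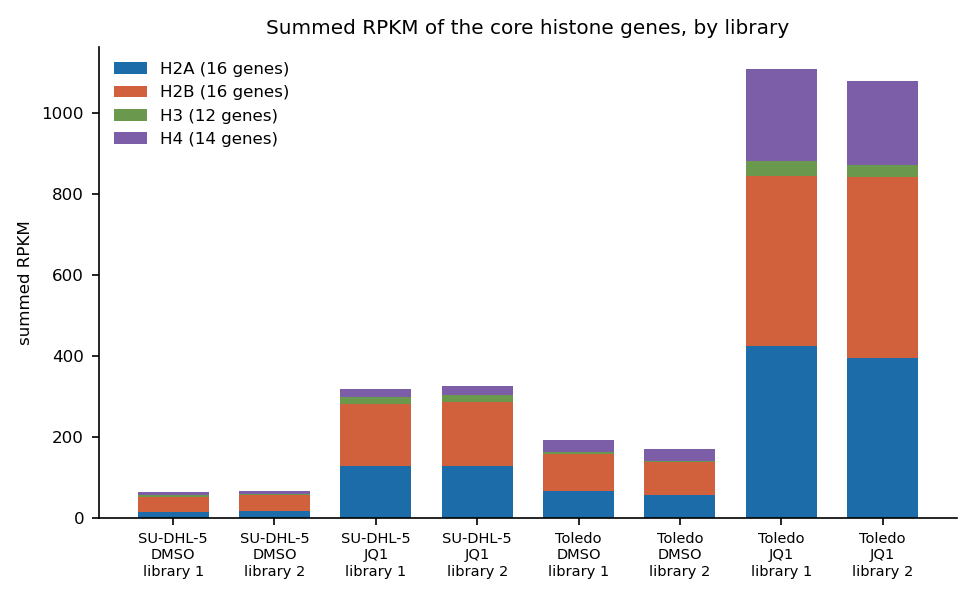
Summed RPKM (vertical axis) of the H2A, H2B, H3 and H4 members in each of the 8 libraries, stacked from 0. The SU-DHL-5 sum went from 62.4 and 64.7 with DMSO to 317 and 325 with JQ1, and the Toledo sum from 191 and 168 to 1107 and 1079.

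HIST1H2BK, an H2B gene at chromosome 6 whose gene model in the files is spliced and 839 bases long, had the highest value of any single member in every sample. In Toledo JQ1 the copies HIST2H2AA3 and HIST2H2AA4 together were at 297 and 282 RPKM, which overlapped it. HIST1H4I lies within the span of this model. HIST1H2BK reached 28.5 and 25.8 RPKM with DMSO and 83.9 and 88.1 with JQ1 in SU-DHL-5, and 64.7 and 57.5 with DMSO and 249 and 283 with JQ1 in Toledo. The gene alone supplied 42.7% of the summed RPKM in SU-DHL-5 DMSO and 34.0% in Toledo DMSO, and 26.8% and 24.3% in the JQ1 samples. Its share of the sum was therefore lower with JQ1, and its log2 ratio of 1.66 in SU-DHL-5 cells and 2.12 in Toledo cells was among the smaller ones of the genes described here. Without it, the sum of the other 57 members was 6.45-fold higher with JQ1 in SU-DHL-5 and 6.97-fold higher in Toledo.

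Genes were compared singly where the 4 libraries of a line held at least 50 reads, by the log2 ratio of the mean RPKM with 0.1 RPKM added, a scale that understates the change of low genes. A gene was called higher when this ratio was above 2-fold and both JQ1 libraries exceeded both DMSO libraries, and lower in the mirrored case. In SU-DHL-5, 19 of the 58 members had enough reads. Of these, 18 were called higher, against 1.85% of all 10207 genes with as many reads, and 0 were called lower, against 7.22%. In Toledo, 25 members had enough reads. Of these, 22 were called higher, against 1.94% of 10715 genes, and 0 were called lower, against 9.49%. The median log2 ratio of these members was 2.93 in SU-DHL-5 cells and 2.79 in Toledo cells, where the median over all genes was 0.0095 and -0.086, and that over other genes of 300 to 1000 bases was -0.056 and -0.12.

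These counts and medians are a description, since several members reached 50 reads only through their JQ1 libraries and had to differ to do so. With 50 reads demanded of the DMSO libraries alone, 2 members remained in SU-DHL-5 (HIST1H2BD and HIST1H2BK), both called higher, against 1.39% of the 9855 genes that met the same demand. In Toledo 11 members remained and 10 were called higher, against 1.42% of 10334 genes. The exception was HIST2H2AC, described below. All 19 members compared in SU-DHL-5 were also compared in Toledo, and 17 of them were called higher in both lines. Whether a gene's response differed between the lines was not tested, as each line has 1 sample per condition.

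Both lines together allow a test of JQ1 with the line as a block, which was added after the data had been seen. It was fitted with limma to the 4 samples and leaves 1 residual degree of freedom per gene. The fit joined this with 10.4 prior degrees of freedom, estimated over all genes in it. The spread behind each p-value is thus mostly that of other genes between the 2 lines, and it is not the spread between cultures. Of the 28 members with at least 50 reads over the 8 libraries, 23 were higher at an adjusted p below 0.05, against 8.29% of 11404 genes. In the other direction, 0 members were lower, against 15.1%. These counts share the limit given above, since JQ1 reads alone could bring a member into the fit. HIST2H2BF, which passed, had 0 DMSO and 23 JQ1 reads for SU-DHL-5, and 18 and 253 for Toledo. The fit was not repeated with a demand on the DMSO libraries alone. Genes with a near-identical copy entered it singly. HIST2H2BE differed by 3.52 on the log2 scale (SE 0.18, limma adjusted p = 4.99e-07), HIST1H2BK by 1.89 (SE 0.125, adjusted p = 2.79e-06) and HIST2H2AC by 1.05 (SE 0.172, adjusted p = 0.00139). The 5 members that did not pass were HIST1H2BL, HIST1H4J, HIST1H4K, HIST3H2A and HIST3H2BB. HIST3H2A and HIST3H2BB had 0 reads in every SU-DHL-5 library. For them the fit averaged a difference of 0 with that of Toledo, where both were called higher, to 0.81 and 1.20. HIST1H4J and HIST1H4K are copies whose single values are not usable, as described below. The count depends on the fit: without the block 0 members passed, although 13 had an unadjusted limma p below 0.05, and with all members of at least 1 read 11 passed.

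**Figure D2:**
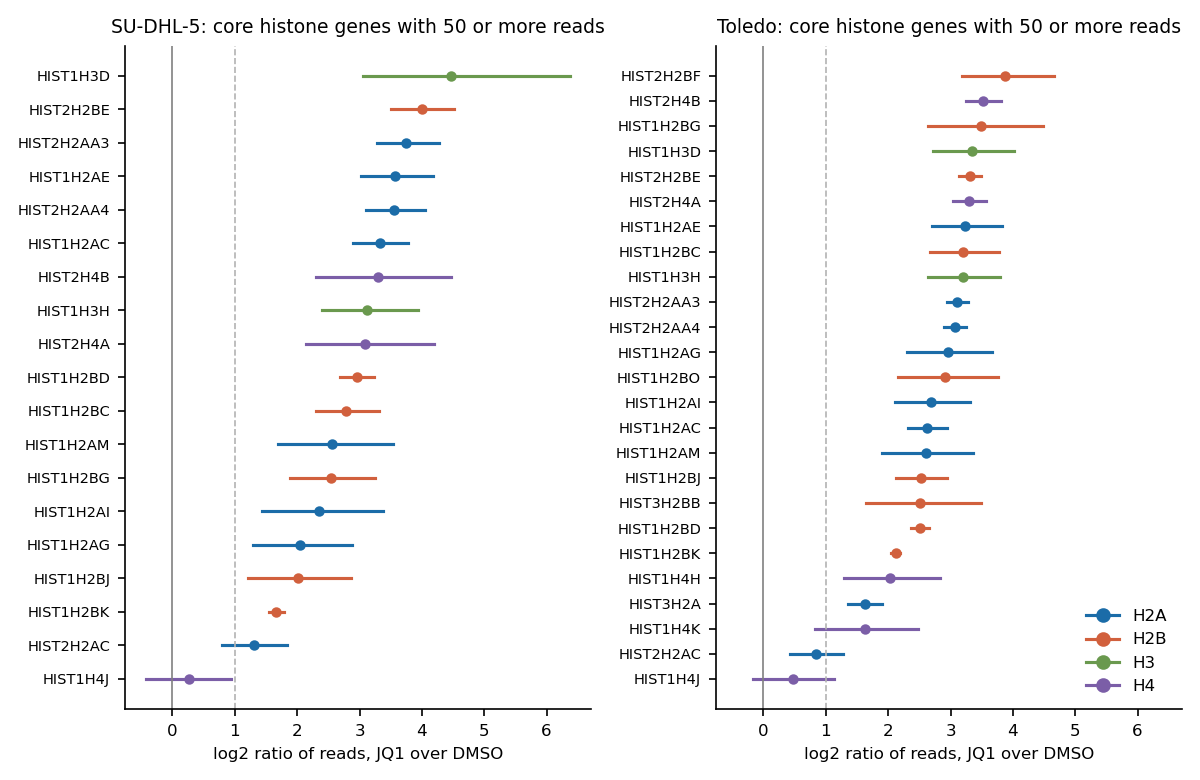
Log2 ratio of reads per mapped read, JQ1 over DMSO (horizontal axis), for the 19 members in SU-DHL-5 and the 25 in Toledo with at least 50 reads over the 4 libraries. Points are the ratios, bars their 95% exact binomial intervals (counting error only), colours the histone types, and the dashed line marks a 2-fold difference. HIST1H4J and HIST2H2AC lie at the bottom in both lines.

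H2A proteins pair with H2B in the octamer. Summed H2A RPKM was 14.2 and 16.9 with DMSO and 127 and 127 with JQ1 in SU-DHL-5, and 66.0 and 55.7 with DMSO and 425 and 394 with JQ1 in Toledo, which is 8.13-fold and 6.72-fold higher. All 8 H2A members with enough reads in SU-DHL-5 were called higher, as were 8 of 9 in Toledo. HIST2H2AA3 and HIST2H2AA4 on chromosome 1 are near-identical copies, and 97.1% of the 50-base stretches of HIST2H2AA4 transcripts occur in HIST2H2AA3, so reads were split between them by the authors' counting and only their sum is firm. That sum was 3.70 and 5.40 RPKM with DMSO and 57.9 and 57.4 with JQ1 in SU-DHL-5 cells, a log2 ratio of 3.63. In Toledo it was 38.2 and 29.5 with DMSO and 297 and 282 with JQ1, a log2 ratio of 3.09. The pair was the highest H2A source in both JQ1 samples.

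HIST1H2AC on chromosome 6 was at 2.57 and 2.80 RPKM with DMSO and at 27.0 and 26.8 with JQ1 in SU-DHL-5 (log2 ratio 3.28). In Toledo it was at 5.80 and 5.41 with DMSO and at 37.0 and 32.2 with JQ1 (log2 ratio 2.61). It was called higher in both lines, and in GENCODE it has a form of 1668 bases that runs 1128 bases past the stem-loop. HIST1H2AE was at 1.13 and 1.98 with DMSO and at 18.4 and 19.0 with JQ1 in SU-DHL-5, and at 1.10 and 2.18 with DMSO and 16.4 and 14.2 with JQ1 in Toledo. HIST1H2AG was at 0.895 and 1.30 with DMSO and at 5.48 and 3.57 with JQ1 in SU-DHL-5, and at 1.48 and 1.11 with DMSO and 11.7 and 8.46 with JQ1 in Toledo. HIST1H2AE and HIST1H2AG were called higher in both lines, although the JQ1 libraries of HIST1H2AG in SU-DHL-5 were the less alike.

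HIST2H2AC had the smallest differences of the H2A genes compared. Its RPKM was 3.50 and 2.96 with DMSO and 8.04 and 7.83 with JQ1 in SU-DHL-5, and 4.79 and 5.35 with DMSO and 9.71 and 8.51 with JQ1 in Toledo. With DMSO it was the highest single H2A gene of SU-DHL-5, yet its log2 ratios were 1.27 and 0.83. In Toledo it stayed under the 2-fold limit although the libraries did not overlap. The 95% interval of its log2 read ratio, 0.43 to 1.28 in Toledo, lay below the interval of every other H2A gene compared there. In SU-DHL-5 cells its interval of 0.79 to 1.83 overlapped those of HIST1H2AG (1.29 to 2.88), HIST1H2AI (1.43 to 3.38) and HIST1H2AM (1.70 to 3.54).

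H2B was the type with the highest mean sum in every sample. Its summed RPKM was 37.7 and 38.3 with DMSO and 153 and 158 with JQ1 in SU-DHL-5, and 90.7 and 81.3 with DMSO and 420.0 and 447 with JQ1 in Toledo, which is 4.09-fold and 5.04-fold higher. All 6 H2B members compared in SU-DHL-5 and all 9 in Toledo were called higher. H2B nevertheless made up less of the core histone RPKM with JQ1, going from 59.8% to 48.5% in SU-DHL-5 cells and from 47.9% to 39.7% in Toledo, while the H2A share went from 24.5% to 39.5% and from 33.9% to 37.4%.

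HIST2H2BE had the highest log2 ratio of SU-DHL-5, 3.75, on the scale with 0.1 RPKM added. By reads per mapped read HIST1H3D was above it, at 4.46 on 4 DMSO reads against 3.99, with overlapping intervals. It was at 0.401 and 0.583 RPKM with DMSO and at 7.96 and 7.82 with JQ1 there, and at 3.79 and 3.91 with DMSO and 39.5 and 37.1 with JQ1 in Toledo (log2 ratio 3.28). With 2223 bases it has the longest gene model of all members, and its GENCODE form runs 1729 bases past the stem-loop. HIST1H2BC was at 1.89 and 3.50 with DMSO and at 16.9 and 20.9 with JQ1 in SU-DHL-5, and at 1.94 and 2.39 with DMSO and 20.2 and 19.5 with JQ1 in Toledo. HIST1H2BG was at 1.72 and 1.46 with DMSO and at 9.67 and 8.61 with JQ1 in SU-DHL-5, and at 1.02 and 0.553 with DMSO and 9.12 and 8.77 with JQ1 in Toledo. HIST1H2BJ was at 0.927 and 1.22 with DMSO and at 3.65 and 5.12 with JQ1 in SU-DHL-5, and at 4.12 and 3.46 with DMSO and 23.4 and 20.4 with JQ1 in Toledo. None of these genes overlapped between DMSO and JQ1 in either line.

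**Figure D3:**
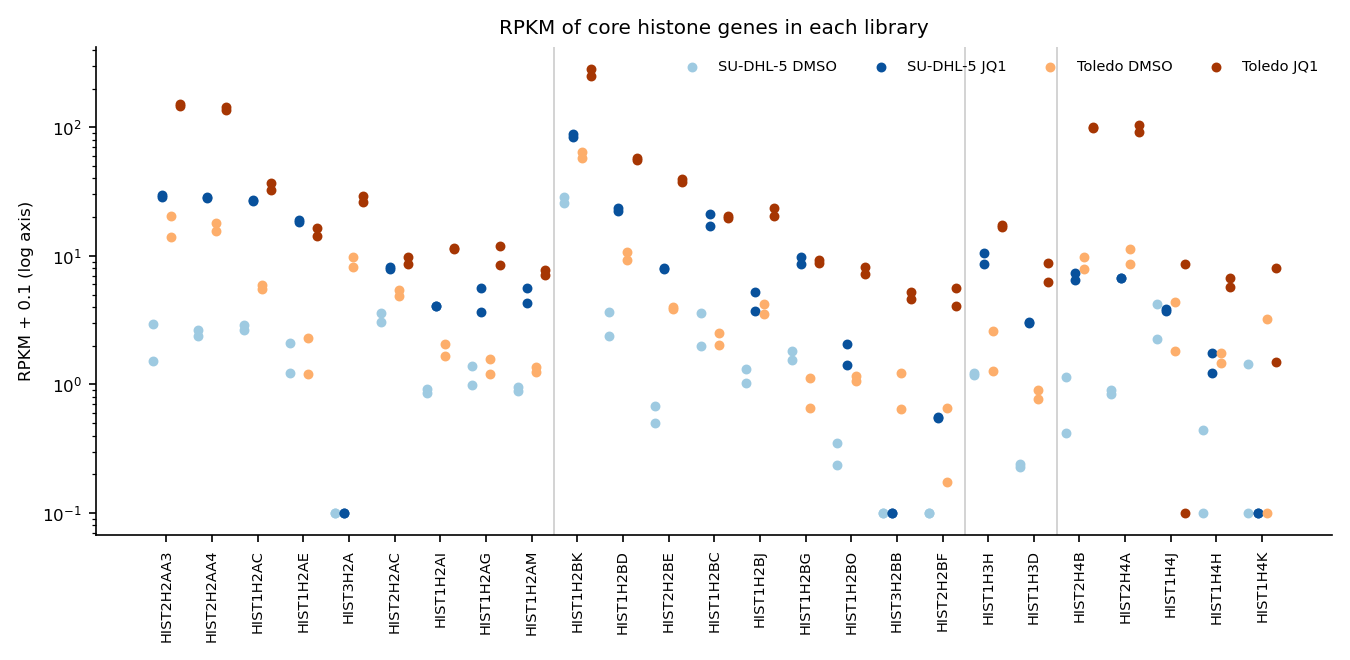
RPKM plus 0.1 on a log axis (vertical) for each of the 25 members with at least 50 reads in a line, with 1 point per library, grouped by type (H2A, H2B, H3, H4 from the left) and ordered by mean level. Values at 0 sit at 0.1. HIST1H2BK has the highest single value in every sample, HIST3H2A and HIST3H2BB are at 0 in all SU-DHL-5 libraries, and HIST1H4J and HIST1H4K change places between libraries.

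HIST1H2BD is listed with 3 transcripts, which separates a form that carries the stem-loop from one in which none was found. At gene level it was at 2.26 and 3.58 RPKM with DMSO and at 23.5 and 22.2 with JQ1 in SU-DHL-5, and at 10.6 and 9.21 with DMSO and 55.2 and 57.9 with JQ1 in Toledo. Of its reads, 96.2% in SU-DHL-5 DMSO, 94.7% in SU-DHL-5 JQ1, 92.5% in Toledo DMSO and 96.6% in Toledo JQ1 were assigned to a spliced form of 814 bases between 26158121 and 26171349 on chromosome 6. This form ends at the same base as HIST1H2BD-201 of GENCODE, in which no stem-loop was found. It was at 3.68 and 5.64 RPKM with DMSO and at 36.8 and 35.1 with JQ1 in SU-DHL-5, and at 15.4 and 15.1 with DMSO and 88.6 and 92.6 with JQ1 in Toledo. The unspliced form of 487 bases, which lies where the stem-loop carrying HIST1H2BD-202 does, had 3 reads with DMSO and 22 with JQ1 in SU-DHL-5, against 25 and 30 for Toledo. In Toledo 24 of the 25 DMSO reads came from library 1, so the stem-loop form overlapped between the samples there.

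HIST2H2BF, the other member with several transcripts, had the highest log2 ratio of Toledo, 3.55. Its gene value was 0 in both SU-DHL-5 DMSO libraries and 0.443 and 0.459 RPKM with JQ1, where 23 reads against 0 give at least an 8.05-fold higher level when 3 reads over the DMSO sample are taken as the floor. In Toledo it was at 0.552 and 0.0751 with DMSO and at 5.55 and 3.97 with JQ1. Its longest spliced form, of 999 bases, took 4 of the Toledo DMSO reads and 200 of the JQ1 reads, while the unspliced form of 495 bases took 10 and 39. The spliced form thus held 26.7% of the transcript reads with DMSO and 80.3% with JQ1, although the DMSO shares rest on few reads. In HIST2H2BF-204, the GENCODE model with the same ends, no stem-loop was found, while HIST2H2BF-201, of 1 exon, carries it.

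H3, which carries many of the acetylated residues of the octamer, gave the lowest sum. Summed H3 RPKM was 3.08 and 2.60 with DMSO and 17.7 and 17.7 with JQ1 in SU-DHL-5, and 5.90 and 3.90 with DMSO and 36.3 and 30.2 with JQ1 in Toledo, which is 6.24-fold and 6.77-fold higher. Only 2 of the 12 H3 members had enough reads, and both were called higher in both lines. HIST1H3H was at 1.08 and 1.12 with DMSO and at 10.5 and 8.53 with JQ1 in SU-DHL-5, and at 2.51 and 1.17 with DMSO and 17.4 and 16.8 with JQ1 in Toledo. HIST1H3D was at 0.138 and 0.128 with DMSO and at 2.90 and 2.97 with JQ1 in SU-DHL-5, and at 0.798 and 0.669 with DMSO and 8.68 and 6.19 with JQ1 in Toledo. The HIST1H3D model of 921 bases overlaps HIST1H2AD, so reads of either gene may have been given to the other and its value is uncertain.

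Below 50 reads, HIST1H3J had 49 in SU-DHL-5, at 0.799 and 0.246 RPKM with DMSO and 2.03 and 3.58 with JQ1, and 28 in Toledo, at 0.592 and 0.129 with DMSO and 1.80 and 1.04 with JQ1. HIST1H3B was at 0.270 and 0.250 with DMSO and 0.770 and 0.725 with JQ1 in SU-DHL-5, and at 0.360 and 0.130 with DMSO and 2.34 and 0.788 with JQ1 in Toledo. HIST2H3A and HIST2H3C are identical over the 50-base stretches of their transcripts, and together they had 4 reads with DMSO and 5 with JQ1 in SU-DHL-5, against 10 and 51 for Toledo. A difference of the HIST2H3A and HIST2H3C pair was not detectable at this depth in SU-DHL-5, where the interval of the log2 read ratio was -1.82 to 2.73.

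H4 differed most between clusters. Its summed RPKM was 7.42 and 6.81 with DMSO and 20.1 and 22.0 with JQ1 in SU-DHL-5, which is 2.96-fold higher, and 28.3 and 27.6 with DMSO and 226 and 208 with JQ1 in Toledo, which is 7.77-fold higher. The 11 H4 genes of HIST1 summed to 6.14 and 4.88 with DMSO and 7.14 and 7.68 with JQ1 in SU-DHL-5, and the ratio over the library pairings ran from 1.16 to 1.57. In Toledo they summed to 9.27 and 9.10 with DMSO and 21.4 and 16.8 with JQ1, a 2.08-fold difference. The H4 genes of HIST2 carried most of the increase.

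HIST2H4A and HIST2H4B are the H4 members of HIST2 and share over 97% of their 50-base stretches, so they are described as a sum. The pair was at 1.13 and 1.78 RPKM with DMSO and at 13.0 and 13.8 with JQ1 in SU-DHL-5, a 9.22-fold difference. In Toledo it was at 19.0 and 18.2 with DMSO and at 205 and 190.1 with JQ1, a 10.6-fold difference. HIST2H4A taken alone had a log2 ratio of 2.93 in SU-DHL-5 cells and 3.30 in Toledo cells, and HIST2H4B one of 3.15 and 3.50. Neither promoter held an octamer or a CCAAT box.

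HIST1H4J and HIST1H4K also share sequence, and every 50-base stretch of HIST1H4K occurs in HIST1H4J. The reads moved between the copies from library to library: HIST1H4J was at 8.46 and 0 RPKM in the Toledo JQ1 libraries, in which HIST1H4K was at 1.39 and 7.88. The single values of this pair are therefore not usable, but the sum is. The sum was 4.11 and 3.48 with DMSO and 3.75 and 3.65 with JQ1 in SU-DHL-5, and the log2 read ratio of 44 against 41 reads had an interval of -0.68 to 0.62. In Toledo it was 4.29 and 4.86 with DMSO and 9.85 and 7.88 with JQ1, a 1.94-fold difference with an interval of 0.47 to 1.46 on the log2 scale. The interval of the HIST1H4J and HIST1H4K sum lay below that of the HIST2H4A and HIST2H4B sum, which was 2.50 to 3.96 in SU-DHL-5 and 3.22 to 3.60 in Toledo.

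HIST1H4H, by contrast, was at 0.341 and 0 with DMSO and 1.13 and 1.65 with JQ1 in SU-DHL-5, on 18 reads. In Toledo it was at 1.36 and 1.65 with DMSO and at 6.58 and 5.63 with JQ1, a log2 ratio of 1.95, and was called higher there. HIST4H4, the member on chromosome 12, had 5 reads in SU-DHL-5 cells and 8 in Toledo cells, was at 0.602 RPKM at most, and overlapped between DMSO and JQ1 in both lines.

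By cluster, the 44 HIST1 genes summed to 53.1 and 53.4 RPKM with DMSO and 229.6 and 236 with JQ1 in SU-DHL-5, and to 112 and 102 with DMSO and 510.5 and 521 with JQ1 in Toledo. That is 4.37-fold and 4.82-fold higher. The 11 HIST2 genes summed to 9.11 and 11.1 with DMSO and 87.7 and 88.2 with JQ1 in SU-DHL-5, and to 67.8 and 57.9 with DMSO and 562 and 527 with JQ1 in Toledo, which is 8.70-fold and 8.66-fold higher. HIST2 supplied 15.9% of the core histone RPKM of SU-DHL-5 with DMSO and 27.4% with JQ1, and in Toledo its share went from 35.0% to 49.8%. Within HIST1, 12 of 13 members compared in SU-DHL-5 and 14 of 16 in Toledo were called higher, with median log2 ratios of 2.45 and 2.61. Within HIST2, all 6 compared in SU-DHL-5 and 6 of 7 in Toledo were called higher, with medians of 3.33 and 3.28.

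HIST3H2A and HIST3H2BB, which lie back to back on chromosome 1, separated the lines. Both were at 0 in all 4 SU-DHL-5 libraries. In Toledo, HIST3H2A was at 9.69 and 8.07 RPKM with DMSO and at 29.0 and 26.1 with JQ1, a log2 ratio of 1.62. HIST3H2BB was at 1.13 and 0.545 with DMSO and at 5.17 and 4.52 with JQ1, a log2 ratio of 2.40. Against a floor of 3 reads over both SU-DHL-5 DMSO libraries, the 150 reads of HIST3H2A in Toledo DMSO amounted to at least a 48.2-fold higher level. For HIST3H2BB, with 13 reads, it was at least 4.18-fold.

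Many H2A and H2B genes face away from each other across a shared upstream region. Among the members with a RefSeq start, 10 such H2A and H2B pairs had starts less than 300 bases apart, and HIST1H3D shares a listed start with HIST1H2AD. The 250 bases of HIST1H2AC printed above reach the start of HIST1H2BC, 246 bases away. In that pair the log2 ratios were 2.77 for HIST1H2BC and 3.28 for HIST1H2AC in SU-DHL-5 cells, and 3.14 and 2.61 in Toledo, so that both genes were higher with JQ1. The pairs HIST1H2BG and HIST1H2AE, and HIST1H2BJ and HIST1H2AG were likewise called higher on both sides in both lines. HIST1H2AM and HIST1H2BO were both called higher in Toledo, while HIST1H2BO had 27 reads in SU-DHL-5 and was not compared there.

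In 2 pairs the sides differed. HIST2H2BE had log2 ratios of 3.75 and 3.28, while HIST2H2AC, whose start lies 236 bases away, had 1.27 and 0.83. HIST1H2AI and HIST1H2BL, named here after their values were seen, have starts 244 bases apart. HIST1H2AI was at 0.815 and 0.753 RPKM with DMSO and at 4.01 and 3.94 with JQ1 in SU-DHL-5, and at 1.57 and 1.97 with DMSO and 11.4 and 11.2 with JQ1 in Toledo. HIST1H2BL was at 0.984 and 1.69 with DMSO and 1.34 and 1.36 with JQ1 in SU-DHL-5, and at 0.624 and 0.952 with DMSO and 0.679 and 0.547 with JQ1 in Toledo, and overlapped in both lines. HIST1H2BL had only 39 and 21 reads, but the interval of its log2 read ratio, -0.99 to 0.98 in SU-DHL-5 and -1.77 to 1.02 in Toledo, lay below that of HIST1H2AI, 1.43 to 3.38 and 2.10 to 3.32. Before treatment HIST1H2BL was not the lower of the pair in SU-DHL-5.

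**Figure D4:**
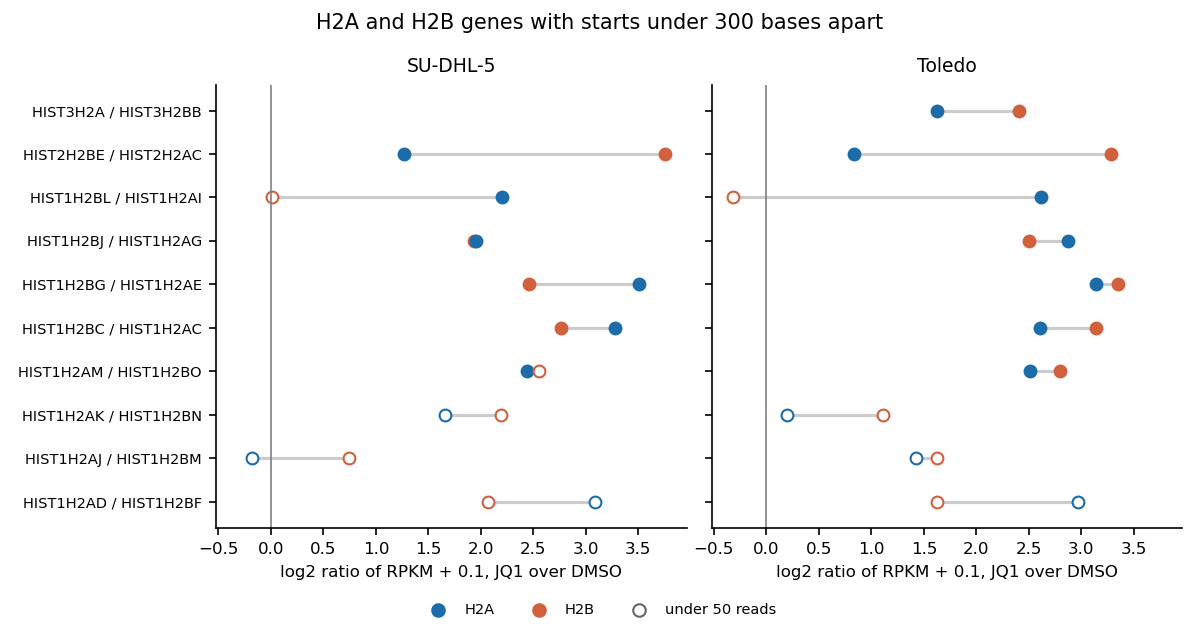
Log2 ratio of RPKM plus 0.1, JQ1 over DMSO (horizontal axis), of the H2A and H2B genes of each back-to-back pair, joined by a line, in SU-DHL-5 (left) and Toledo (right). Open points had under 50 reads over the 4 libraries, and pairs without reads are left out. The sides of HIST2H2BE and HIST2H2AC, at 3.75 and 1.27 in SU-DHL-5, and of HIST1H2BL and HIST1H2AI lie farthest apart.

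Members were called higher both with and without the octamer. Of the members compared whose promoter held the octamer, 11 of 11 in SU-DHL-5 and 12 of 13 in Toledo were called higher, with median log2 ratios of 2.45 and 2.87. Of those without it, 7 of 8 and 10 of 12 were called higher, with medians of 2.97 and 2.55. Members with a GENCODE transcript that runs at least 100 bases past the stem-loop were called higher in 8 of 8 and 12 of 12 cases, with medians of 2.97 and 3.14, and the other members in 10 of 11 and 10 of 13, with medians of 2.44 and 2.51. These shares were not tested, and a gene without an annotated extension may still have one. Both splits are a description only, since JQ1 reads counted towards the 50 reads demanded. With DMSO reads alone, 2 of the 19 members of SU-DHL-5 and 11 of the 25 of Toledo reached 50. Among all genes with as many reads, the share called higher was 1.85% and 1.94%. A link between these sequences and the response was not tested. The same limit holds for the calls and medians by type and by cluster.

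The members with under 50 reads were 39 in SU-DHL-5, with 360 reads in all, and 33 in Toledo, with 462. None exceeded 3.58 RPKM in SU-DHL-5 or 2.34 in Toledo. HIST1H4C, often a major H4 gene of dividing cells and named here after its values were seen, was at 0.816 and 0.604 with DMSO and 0.622 and 0.351 with JQ1 in SU-DHL-5, and at 0.725 and 1.26 with DMSO and 1.10 and 1.11 with JQ1 in Toledo. No difference of HIST1H4C was detectable on these 15 and 27 reads. At the edge of the rule, HIST1H2BE, HIST1H3E and HIST1H4F entered with 1 read each over all 8 libraries, at 0.157, 0.133 and 0.167 RPKM. Outside it, 23 rows with the same symbols were at 0 in every library. Of these, 6 are in the transcript table and had no read (HIST1H2AA, HIST1H2BA, HIST1H2BB, HIST1H3C, HIST1H4G and HIST3H3). The other 17 are not in that table, as is true of 21725 genes of the gene table, none of which had a value, so their 0 is not a measurement.

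Between the untreated lines, that is with DMSO, core histone RPKM was higher in Toledo than in SU-DHL-5. The sum in DMSO was 2.83-fold higher (2.61 to 3.06 over the library pairings), and the 14 members with at least 50 reads had a median log2 ratio of 1.73, against 0.022 over all genes with as many reads. That median is a description only, since several of the 14 reached 50 reads only through Toledo and had to differ to do so, and over all members of at least 1 read it was 0.76. With 50 reads in SU-DHL-5 DMSO alone, HIST1H2BD differed by 1.73 and HIST1H2BK by 1.17. The largest differences apart from HIST3H2A were in HIST2, at 3.59 for the sum of HIST2H4A and HIST2H4B, 2.87 for that of HIST2H2AA3 and HIST2H2AA4, and 2.74 for HIST2H2BE. HIST1H2AC differed by 1.04 and HIST2H2AC by 0.63. HIST1H2BC and HIST1H2AE overlapped between the lines, at log2 ratios of -0.30 and 0.074. The sum of HIST1H4J and HIST1H4K differed by 0.26, with an interval of -0.33 to 0.87. The HIST2 sum was also lower in SU-DHL-5 than in Toledo with JQ1, at 87.7 and 88.2 RPKM against 562 and 527. The cause of the difference between the lines was not tested.

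Genes that make, process or use histone mRNA were read from lists as a comparison. Of 9 genes that act in the transcription of histone genes, 0 were called higher and 0 lower in either line, with median log2 ratios of 0.032 in SU-DHL-5 cells and -0.38 in Toledo cells. NPAT, the coactivator of replication-dependent histone genes, was at 5.34 and 5.43 RPKM with DMSO and 6.02 and 5.71 with JQ1 in SU-DHL-5, and at 3.12 and 4.31 with DMSO and 4.48 and 3.99 with JQ1 in Toledo, where it overlapped. POU2F1, which binds the octamer, was at 3.37 and 3.38 with DMSO and 2.29 and 2.48 with JQ1 in SU-DHL-5 cells, with a log2 ratio of -0.48 there and -0.50 in Toledo. Neither gene differed by 2-fold.

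Of 14 genes of 3′ end processing and decay, 0 were called in either direction, with medians of -0.28 and -0.094. SLBP was at 141 and 148 RPKM with DMSO and 168 and 175 with JQ1 in SU-DHL-5, and at 118 and 129 with DMSO and 134 and 128 with JQ1 in Toledo, overlapping in the latter. LSM11, a subunit of the U7 snRNP that directs cleavage after the stem-loop, had the lowest log2 ratio of this list in both lines, -0.91 and -0.93. It was at 3.56 and 3.13 with DMSO and 1.80 and 1.66 with JQ1 in SU-DHL-5, and at 3.84 and 4.35 with DMSO and 2.33 and 1.86 with JQ1 in Toledo. The part of LSM11 in the histone values was not tested.

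Neither the 10 histone chaperones nor the 15 S-phase genes held a gene called in either direction. Over all genes, 1.85% and 1.94% were called higher and 7.22% and 9.49% lower in SU-DHL-5 and Toledo. The chaperones had medians of -0.038 and -0.068. The S-phase genes had medians of -0.22 in SU-DHL-5 cells and -0.39 in Toledo cells and ranged from -0.96 to 0.19 and from -0.81 to -0.15. MCM5, a subunit of the replicative helicase and the lowest of them in SU-DHL-5, was at 179 and 161 with DMSO and at 85.6 and 88.7 with JQ1 there. The part of S phase in the histone values was not tested.

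Of the linker histones of HIST1, which bind outside the octamer, HIST1H1C was at 82.8 and 95.2 RPKM with DMSO and at 682 and 679 with JQ1 in SU-DHL-5, and at 37.3 and 35.6 with DMSO and 202 and 198 with JQ1 in Toledo. Its log2 ratios of 2.93 and 2.45 lay within the range of the core histone genes. Other genes that lie among the HIST1 genes were compared as neighbours. Between the first and last HIST1 member, at 26020490 and 27893891 on chromosome 6, 13 genes without a histone symbol had a value. Of the 10 with enough reads in SU-DHL-5, 0 were called higher and 0 lower, and of the 11 in Toledo, 0 were called higher and 4 lower. Those 4 were the butyrophilin genes BTN2A1, BTN3A1, BTN3A2 and BTN3A3. Over all genes, 1.85% and 1.94% were called higher and 7.22% and 9.49% lower. The medians of these neighbours were -0.70 and -0.69.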

How the data were processed

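The members and lists were chosen with earlier results of these data known. RNA libraries were prepared with a stranded poly(A) mRNA kit, and the values deposited by the authors are RPKM for genes and for transcripts, scaled to feature length and mapped reads. The submitters' processing notes name CASAVA 2.0 and the builds GRCh38 and hg38. The aligner, counting and annotation are not given in the sources used here. Positions are printed from the files, 1-based, and GENCODE v29 and RefSeq served for sequences.

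The 2 libraries of a sample were averaged and counted as 1 replicate. Mapped reads per library and gene lengths were recovered as the values that make RPKM whole reads, which succeeded for 14942 of 14944 genes with a value. Ratios were log2((a + 0.1)/(b + 0.1)) of the mean RPKM, for genes with at least 50 reads over the 4 libraries compared. Calls needed a 2-fold difference and libraries apart. The 95% intervals are exact binomial (Clopper-Pearson) intervals of the reads, given the mapped reads, and the floor for 0 reads was 3. JQ1 over both lines was fitted with limma 3.58.1 (R 4.3.3, empirical Bayes with a mean trend, Benjamini-Hochberg adjustment) to log2(mean RPKM + 0.1) of the 4 samples, with the line as a block, an addition made after seeing the data. The recovery, the call rule and this fit were tested on simulated data.

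Named members were the 4 with the highest mean RPKM of each type, the 5 highest and 5 lowest ratios of each comparison, those of HIST3 and HIST4, those with several transcripts and those with an identical copy. Alternatives were 1 library, other scaling, centring on genes of like length, transcript sums, a pseudocount of 1 RPKM, a filter of 1 read, a 1.5-fold cutoff, and leaving out genes with a copy or HIST1H2BK. Genes outside the transcript table were not used here. Computations used scipy 1.17.1, numpy 2.4.6 and pandas 2.3.3 under Python 3.11.15, and plots matplotlib 3.10.9.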

Additional observations from a re-analysis of the deposited data

How the results depend on the processing

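Of 112 alternatives over 19 results, 74 moved a value by less than its spread over library pairings, or a count by at most 1.5 times, 38 moved it by more, and 0 reversed it. Ratios here are on the log2 scale.

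With 1 library of each sample alone, the summed RPKM gave 2.33 to 2.35 in SU-DHL-5, 2.54 to 2.68 in Toledo and 1.38 to 1.61 between the untreated lines, and the medians 2.60 to 3.09, 2.79 to 2.82 and 1.38 to 2.11. The members called higher were then 18 and 18 in SU-DHL-5 and 23 to 24 in Toledo, and those called lower 0 and 0 to 1, the 1 being HIST1H4J with library 2. The H4 sum was 1.44 to 1.69 in SU-DHL-5 and the H2B sum 2.21 to 2.46 in Toledo.

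Centred on genes of like length, the sum was 2.40 for SU-DHL-5 and 2.74 for Toledo, the Toledo median 2.92, the H2B sums 2.10 and 2.47, and the Toledo H4 sum 3.09. Scaling by the median ratio of all genes gave a Toledo median of 2.88. Without genes that have an identical copy, the sums were 2.20, 2.28 and, between the untreated lines, 1.19, and the medians 2.61, 2.61 and 1.17. A pseudocount of 1 RPKM gave medians of 2.09, 2.27 and 1.34. With all members of at least 1 read, the medians were 1.65, 1.62 and 0.76, and 33 and 36 members were called higher. In SU-DHL-5, 2 were called lower, HIST1H2AB and HIST1H2BI, with 2 reads each. The share of all genes called with this filter is not given here, so these counts are a description only. Chosen after seeing the data, leaving out HIST1H2BK gave sums of 2.69, 2.80 and 1.70, and the members with reads in both lines gave a Toledo median of 3.06. Of the members higher over both lines by limma, 23 with the line as a block, 0 were left with no replicate block and 11 with all members of at least 1 read. The fold cutoff and the transcript sums moved no value by more than these limits.

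With n = 1 per line and condition, no setting replaces a replicate, and reads limit 33 of the 58 members in both lines.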
